A study of Mus musculus with 30 samples.

Results

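The nuclear genes for the subunits of oxidative phosphorylation were followed in mice that lack ClpP throughout the body and in their wild-type littermates. Members were taken by symbol: the Nduf genes of complex I without assembly factors, Sdha to Sdhd of complex II, the Uqcr genes of complex III, the Cox4 to Cox8 families of complex IV and the Atp5 genes of complex V. Of 17097 genes measured by a probe set assigned to 1 gene symbol, 79 were members: 34 of complex I, 4 of complex II, 7 of complex III, 17 of complex IV and 17 of complex V. Each gene was read by its probe set with the highest mean over all arrays. Ndufs5-ps, annotated as a pseudogene, was taken by the rule, and its probe sets may read Ndufs5. The genes Ndufab1 and Cyc1, also parts of complexes I and III, fall outside the symbol rule and are described separately.

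Expression was measured on 30 Affymetrix arrays, with 3 for each of 10 groups: knockout and wild-type testis, knockout and wild-type liver, and likewise skeletal muscle, brain and heart. All mice were on a C57BL/6 background, and age and sex are not in the labels. The labels do not state that replicates are separate animals, nor whether the same mice gave all 5 tissues, so p-values measure the spread between these samples. Values are log2 expression levels as deposited, and every change is knockout minus wild type on that scale. Clpp, the deleted gene that encodes the proteolytic subunit of a mitochondrial matrix protease, averaged between 3.11 and 3.65 in the 5 knockout tissues and between 6.38 and 9.18 in the wild-type tissues. Array medians lay between 3.24 and 3.38, so a group mean under 4 is near the floor of the array, and a change against it is a bound.

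The labelled tissues carried their markers on all arrays: the hepatocyte list averaged at least 12.4 in liver, the neuron list at least 10.6 in brain, the fast fibre list at least 12.8 in muscle and the cardiomyocyte list at least 10.7 in heart. Some arrays stood apart. Testis wild-type replicate 3 carried transcripts of the epididymis, whose 3 marker genes averaged 10.96 on that array and 2.89 on the lowest wild-type testis array. Muscle wild-type replicate 1 had the highest level of the sperm list on any muscle array, 5.88, against 2.86 on the lowest. Heart knockout replicates 2 and 3 carried high Myl7, the atrial myosin light chain. Some results that rest on these arrays are also given without them, and the others are given with all arrays only.

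Oxidative phosphorylation passes electrons from NADH through complex I, or from succinate through complex II, to complex III, cytochrome c and complex IV, and the proton gradient so made drives ATP synthesis at complex V. Most subunits are encoded in the nucleus and imported, while a few hydrophobic core subunits come from mitochondrial DNA and are not members here. Complex IV is known for paralogs that replace each other by tissue: Cox6a2, Cox7a1 and Cox8b are the heart and skeletal muscle forms of subunits whose widely expressed forms are Cox6a1, Cox7a2 and Cox8a, and Cox6b2, Cox7b2 and Cox8c are testis forms. The upstream sequence of several of these pairs is shown first, because the tissue levels and the changes below turn on which paralog is read.

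The 200 bases before the annotated start are printed 5′ to 3′ on the gene's strand, from RefSeq on the GRCm38.p6 build. The muscle and heart forms are Cox7a1 (chr7:30183971-30184170 on the plus strand) and Cox8b (chr7:140900447-140900646 on the minus strand). The widely expressed forms are Cox6a1 (chr5:115348959-115349158 on the minus strand), Cox7a2 (chr9:79759854-79760053 on the minus strand), Cox8a (chr19:7217617-7217816 on the minus strand) and Cox6b1 (chr7:30626115-30626314 on the minus strand). The testis form Cox6b2 lies at chr7:4753095-4753294 on the minus strand. Capitals mark matches on either strand to GCGCATGCG, letters of the site of NRF1, a transcription factor of respiratory genes.
Cox6a1: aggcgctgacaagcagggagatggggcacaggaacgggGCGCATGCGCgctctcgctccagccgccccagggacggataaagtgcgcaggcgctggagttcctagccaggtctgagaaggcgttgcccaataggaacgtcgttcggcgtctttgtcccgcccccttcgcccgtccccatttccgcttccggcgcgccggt
Cox8a: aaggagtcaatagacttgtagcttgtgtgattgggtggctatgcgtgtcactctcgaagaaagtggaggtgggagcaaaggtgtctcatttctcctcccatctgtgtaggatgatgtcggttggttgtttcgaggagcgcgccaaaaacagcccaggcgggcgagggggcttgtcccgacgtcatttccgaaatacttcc
Cox8b: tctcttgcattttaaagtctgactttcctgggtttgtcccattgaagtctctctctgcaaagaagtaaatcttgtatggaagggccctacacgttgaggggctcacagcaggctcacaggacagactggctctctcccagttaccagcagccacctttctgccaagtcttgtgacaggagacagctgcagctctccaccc
Cox7a1: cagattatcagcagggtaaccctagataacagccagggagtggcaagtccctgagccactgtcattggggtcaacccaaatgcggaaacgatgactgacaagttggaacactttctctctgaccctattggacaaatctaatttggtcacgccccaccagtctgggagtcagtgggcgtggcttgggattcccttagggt
Cox7a2: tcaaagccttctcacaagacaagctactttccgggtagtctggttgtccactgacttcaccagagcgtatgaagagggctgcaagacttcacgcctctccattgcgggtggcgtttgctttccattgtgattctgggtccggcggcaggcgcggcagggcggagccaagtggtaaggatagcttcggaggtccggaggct
Cox6b1: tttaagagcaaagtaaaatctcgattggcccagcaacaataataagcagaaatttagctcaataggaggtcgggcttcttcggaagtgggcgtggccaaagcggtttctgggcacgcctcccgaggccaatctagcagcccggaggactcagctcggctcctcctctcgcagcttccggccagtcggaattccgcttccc
Cox6b2: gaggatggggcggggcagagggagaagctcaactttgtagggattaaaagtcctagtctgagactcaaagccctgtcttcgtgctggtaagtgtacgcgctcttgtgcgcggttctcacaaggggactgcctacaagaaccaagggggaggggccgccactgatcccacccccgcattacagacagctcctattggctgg

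Of these 7 windows, only that of Cox6a1 holds the NRF1 letters, from 162 bases before the start. The GC content of the printed window was 67.0% for Cox6a1, and 53.0% for Cox8a, 51.5% for Cox8b, 52.0% for Cox7a1, 57.5% for Cox7a2, 55.5% for Cox6b1 and 57.5% for Cox6b2. A RefSeq promoter of 300 bases, 250 before the start and 50 after it, was matched for 63 of the 79 members. Searched on both strands, the NRF1 letters were in 8 of the 63 (12.7%), Atp5g2, Atp5k, Atp5l, Cox6a1, Ndufa8, Ndufa11, Uqcr11 and Uqcrc1, and in 1.95% of 27025 genes with a promoter. The letters AANATGGCG of YY1, another regulator of respiratory genes, were in 10 members (15.9%), 7 of complex I and 3 of complex V, and in 2.76% of all genes. The letters TGACGTCA of the cyclic AMP response element were in 6.35% of members and 2.03% of all genes. The estrogen-related receptor letters TNAAGGTCA were in 4.76% of members and 1.43% of all genes, and the ETS letters CCGGAAGT in 6.35% of members and 4.31% of all genes. The motif of MEF2, a muscle factor, was in 0 of the 63 members with a promoter and in 0.636% of all genes. Cox6a2, Cox8c and Cox4i1 are among the members without a matched promoter and were not searched. No member promoter held overlapping matches of different motifs. The 27025 genes were not limited to those measured here. The NRF1 and YY1 letters were shortened and the MEF2 motif narrowed after first counts had been seen. A match is a description of these letters and not evidence of binding.

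In wild-type mice the members were most abundant in heart. Of the 79, 72 had their highest wild-type mean in heart, 4 in testis, 2 in brain, 1 in muscle and 0 in liver, and 63 had their lowest in testis. Against the mean of the other 4 wild-type tissues, limma called 74 members higher and 4 lower in heart, where 27.5% of all genes were called higher and 33.6% lower. In muscle 70 were higher and 5 lower (26.3% and 37.4% of all genes). In testis 5 were higher and 69 lower (32.1% and 40.7%), in liver 9 and 49 (25.5% and 40.8%), and in brain 7 and 52 (28.1% and 46.5%). The median difference of the members was 1.32 in heart, 0.81 in muscle, -0.31 in liver, -0.36 in brain and -1.59 in testis. Every member of complexes I, II, III and V was called higher in heart, and the 4 called lower there, Cox6a1, Cox6b2, Cox7b2 and Cox8c, belong to complex IV.

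**Figure D1:**
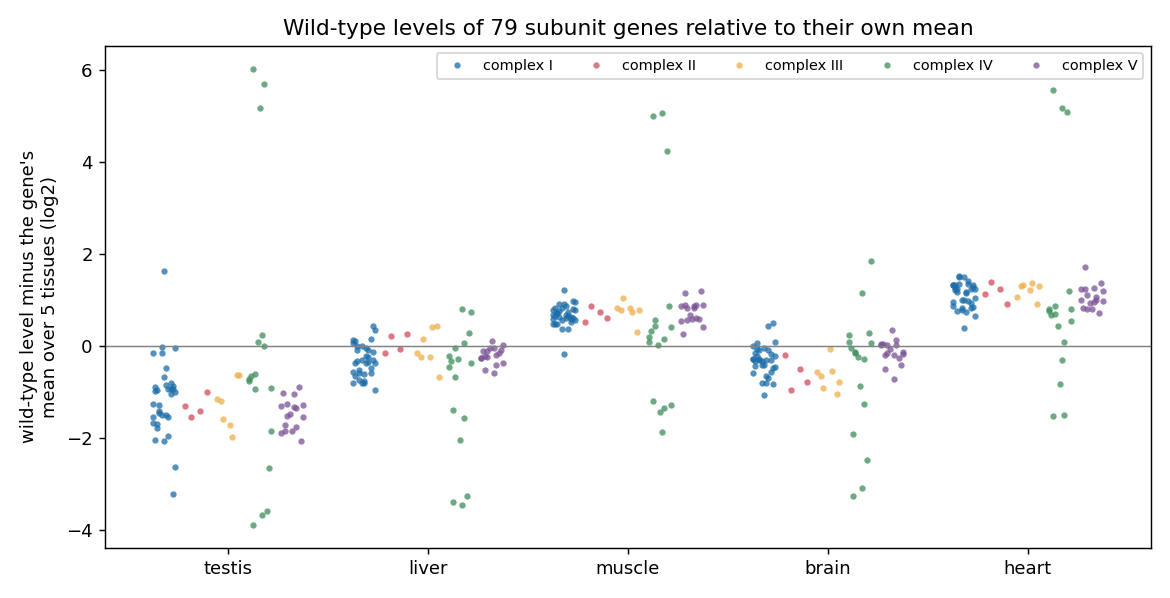
Wild-type mean of each of the 79 members in each tissue minus that gene's own mean over the 5 wild-type tissues (vertical axis, log2), coloured by complex. Heart holds the highest mean of 72 members and testis the lowest of 63, and the points farthest from 0 are isoforms of complex IV.

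The muscle and heart isoforms marked these tissues. Cox6a2 was 12.67, 12.57 and 12.52 in wild-type heart, 11.97, 12.10 and 11.99 in muscle, and averaged 3.14 in testis, 3.64 in liver and 3.76 in brain. Cox8b was 12.22, 12.13 and 12.18 in heart and 12.10, 12.04 and 12.03 in muscle, and averaged 3.90 or less in the others. Both were therefore near the floor outside the striated muscles, apart from 1 brain array with 4.84 for Cox6a2. Cox7a1 was 12.09, 11.94 and 11.98 in heart, 11.04, 11.38 and 11.06 in muscle, and averaged 4.44 in brain, 3.66 in liver and 3.34 in testis. The heart arrays of Cox7a1 lay above all muscle arrays (difference 0.85 ± 0.20 SE, limma adjusted p = 0.00111), whereas heart and muscle did not differ past the threshold for Cox8b (0.12 ± 0.13, adjusted p = 0.566) or Cox6a2 (0.57 ± 0.25, adjusted p = 0.0893).

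The widely expressed forms ran in another order. Cox6a1 averaged 12.92 ± 0.04 in wild-type brain, 12.56 ± 0.10 in liver, 12.00 ± 0.11 in testis, 11.45 ± 0.11 in heart and 9.88 ± 0.19 in muscle (SD, n = 3 each). Cox8a averaged 11.53 ± 0.07 in brain, 10.42 ± 0.09 in liver, 10.23 ± 0.06 in heart, 8.40 ± 0.24 in muscle and 7.84 ± 0.63 in testis. Muscle was thus low for both while its arrays were high for Cox6a2 and Cox8b. The 2 forms also gave the largest differences between wild-type heart and muscle, 1.84 ± 0.19 for Cox8a (adjusted p = 1.46e-08) and 1.56 ± 0.11 for Cox6a1 (adjusted p = 1.75e-11). In that comparison 57 members were higher in heart and 0 lower by limma, where 19.8% of all genes were called higher and 16% lower, and 62 members were higher at an unadjusted p below 0.05 with 0 lower. Cox7a2, the widely expressed COX7A form, varied least among these, between 11.41 in liver and 12.13 in heart.

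In testis the forms of complex IV differed in opposite directions from the other tissues. Cox8c was 11.27, 11.05 and 10.99 in wild-type testis and averaged between 3.16 and 3.88 in the other 4 tissues (difference 7.53 ± 0.15, adjusted p = 7.49e-24). Cox7b2 was 9.79, 9.50 and 9.75 in testis and between 2.43 and 2.73 elsewhere (7.11 ± 0.13), and Cox6b2 was 10.65, 9.99 and 10.65 and between 3.21 and 4.42 elsewhere (6.48 ± 0.17). These 3 transcripts were near the floor or little above it outside testis. Cox6b1, the widely expressed COX6B form, was 8.34, 8.82 and 9.06 in testis and averaged between 11.68 and 12.60 in the others (-3.32 ± 0.09, adjusted p = 4.01e-21). Ndufa4, named as a complex I subunit and since assigned to complex IV, was 7.59, 7.79 and 8.48 in testis and averaged between 11.60 and 12.49 elsewhere (-4.02 ± 0.11). Its paralog Ndufa4l2, known as a gene induced by hypoxia, was highest in testis, at 6.24, 5.67 and 5.89 (2.03 ± 0.17). Cox4i2, the lung form of COX4, averaged at most 3.3 in every wild-type tissue.

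**Figure D2:**
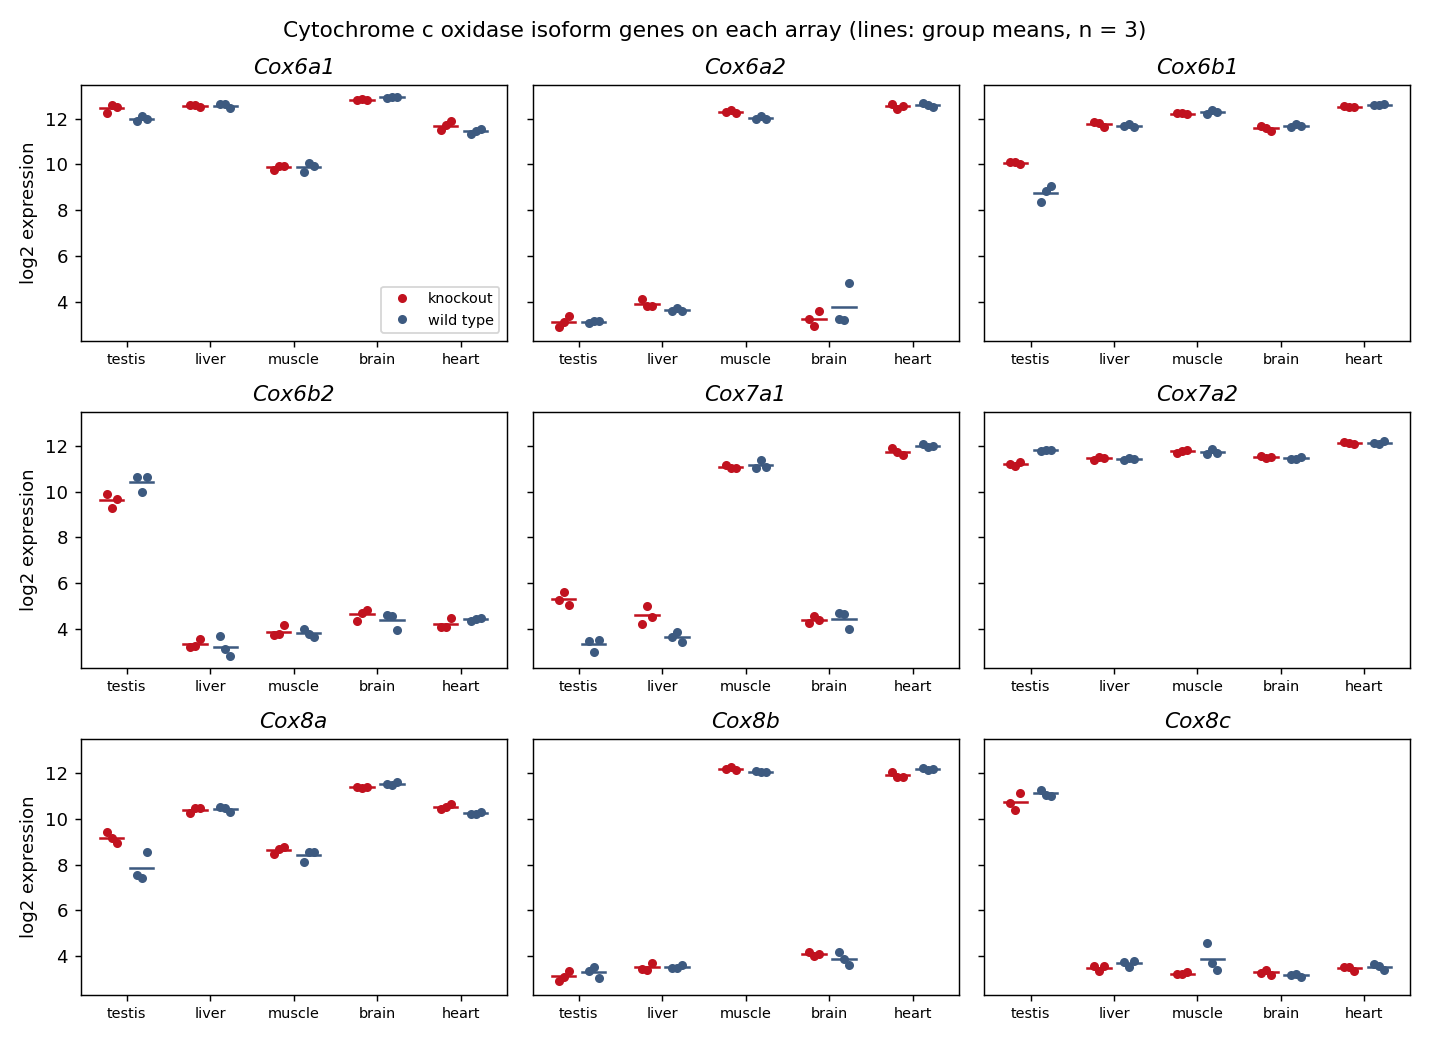
Log2 level (vertical axis) of 9 cytochrome c oxidase isoform genes on each array in 5 tissues, knockout arrays in red left of wild-type arrays in blue, with lines at group means. Cox6a2, Cox7a1 and Cox8b are high in muscle and heart, and Cox6b2 and Cox8c in testis, in both genotypes.

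Deletion of Clpp was accompanied by broad changes of the members in testis. By limma, 45 of the 79 members were higher in knockout testis and 6 lower, where 32.8% of all genes were called higher and 23.4% lower. All knockout arrays lay above all wild-type arrays for 44 members and below them for 9, against 35.3% and 28.2% of all genes. The 5168 genes averaging 6 or more over all 30 arrays include 73 of the members. Of these genes 62.9% were called higher and 17.1% lower. That mean takes in all 5 tissues, so genes high in testis alone can fall outside this range. The median change was 0.40 for the members, 0.02 for all genes and 0.69 for those of higher signal. Of the 73 members in that range 45 rose and 4 fell. In bulk tissue, fewer cells of a type and less RNA per cell cannot be told apart. When the arrays were centred on the genes averaging 6 or more, a scaling added after the data had been seen, testis changes moved by -0.56 and the median of all genes became -0.54. Then 18 members were higher and 37 lower. The 18 higher genes rose under both scalings and the 6 called lower were lower under both, while 5 genes, Atp5d, Atp5h, Cox5b, Ndufa9 and Ndufs4, changed from higher to lower, 22 rises were no longer called and 26 uncalled genes became lower. Without testis wild-type replicate 3 and muscle wild-type replicate 1, 45 members were higher and 7 lower.

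Marker genes of testis cells moved as well. Of 13 elongating spermatid and sperm genes 12 fell (median -4.48), with the list's mean level between 7.46 and 8.40 on knockout arrays and between 11.9 and 12.3 on wild-type arrays. All 8 round spermatid genes fell (median -4.09), at 5.07 to 6.57 on knockout and 9.62 to 10.0 on wild-type arrays, and 1 of the 8 averaged under 4 in knockouts. All 9 Sertoli genes rose (median 1.56), at 6.88 to 7.11 on knockout and 5.37 to 5.55 on wild-type arrays, and all 6 Leydig genes rose (median 1.62), at 9.83 to 10.1 on knockout and 8.28 to 8.48 on wild-type arrays. Of 7 spermatogonial genes 5 rose, and of 7 spermatocyte genes 5 rose and 1 fell. In wild-type testis 4 of the 9 Sertoli and 2 of the 7 spermatogonial genes averaged under 4. Beside these counts, 32.8% of all genes were called higher and 23.4% lower, and 62.9% and 17.1% of those averaging 6 or more. The part of these shifts in cell markers in the changes of the members was not tested. The difference between 3′ and 5′ control probe sets also differed, at 0.546 in knockout and 0.975 in wild-type testis for Gapdh. For actin it was 1.23 in knockout and 1.66 in wild-type testis, and the part of this difference was not tested.

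Complex I takes electrons from NADH. Of its 34 members 18 rose and 4 fell in knockout testis (median 0.30), and 7 of the 18 rose under both scalings. For comparison, 32.8% of all genes were called higher in testis and 23.4% lower. Among genes averaging 6 or more, 62.9% were higher and 17.1% lower (median 0.69). Ndufa1, an accessory subunit of the membrane arm, was 11.35, 11.59 and 11.34 on knockout arrays, against 9.48, 9.77 and 10.27 on wild-type arrays (1.58 ± 0.13, adjusted p = 7.07e-11). Ndufa10, an accessory subunit, was 10.20, 10.39 and 10.20 in knockouts, against 8.90, 8.90 and 8.92 in wild types (1.36 ± 0.09, adjusted p = 6.34e-13). In both genes all knockout arrays lay above all wild-type arrays, and the wild-type arrays of Ndufa10 were within 0.02 of each other. A second, dimmer probe set of Ndufa10, with a mean level of 5.11, showed no rise (-0.14). Ndufb11, an X-linked membrane-arm subunit, was 10.24, 10.26 and 9.93 in knockouts, against 8.02, 8.55 and 9.19 in wild types (1.56 ± 0.16, adjusted p = 5.12e-09). Wild-type replicate 3 was the highest of its group for Ndufa1 and Ndufb11, and without it and the muscle array the changes were 1.80 and 1.86. Ndufa4 was 9.79, 9.57 and 9.43 in knockouts, against 7.59, 7.79 and 8.48 in wild types, a 3.13-fold rise (1.64 ± 0.14, adjusted p = 2.15e-10). These 4 genes rose under both scalings.

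The falls within complex I were smaller except for 1 gene. Ndufa4l2 was 3.60, 3.23 and 3.58 in knockout testis, against 6.24, 5.67 and 5.89 in wild-type testis, at least 5.51-fold lower since the knockout mean is near the floor (-2.46 ± 0.21, adjusted p = 2.5e-10). Its knockout arrays did not approach any wild-type array, and its paralog Ndufa4 moved the opposite way. Ndufa5, a subunit of the peripheral arm, was 8.97, 8.83 and 8.81 in knockouts, against 9.41, 9.37 and 9.26 in wild types (-0.47 ± 0.12, adjusted p = 0.00106). Ndufa12, also of the peripheral arm, was 11.03, 11.21 and 11.35 in knockouts, against 11.51, 11.85 and 11.51 in wild types (-0.43 ± 0.10, adjusted p = 0.000827), and a second bright probe set of this gene gave -0.60, while another near the floor gave 0.052. Ndufa7 was 10.16, 10.09 and 10.11 in knockouts, against 10.41, 10.34 and 10.49 in wild types (-0.30 ± 0.08, adjusted p = 0.00207), a call that was lost after quantile normalization. In each of these 4 genes the groups did not overlap.

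Complex II, succinate dehydrogenase, had 3 of its 4 members higher (median 0.64), against 32.8% of all genes and 62.9% of those averaging 6 or more. The flavoprotein Sdha was 10.07, 10.25 and 10.16 in knockout testis, against 9.60, 9.50 and 9.65 in wild-type testis (0.58 ± 0.11). The iron-sulphur subunit Sdhb was 10.55, 10.75 and 10.60 in knockouts, against 10.03, 9.82 and 9.95 in wild types (0.70 ± 0.09), and the membrane anchor Sdhc was 8.44, 8.06 and 8.05 in knockouts, against 7.50, 7.11 and 7.53 in wild types (0.80 ± 0.11). The groups did not overlap for any of the 3, and none of the 3 rises was called after centring on genes of higher signal. Sdhd, the other anchor, changed by 0.29 ± 0.16 (adjusted p = 0.149).

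In complex III 3 of 7 members rose (median 0.22), against 32.8% of all genes and 62.9% of those averaging 6 or more. Uqcrc2, a core protein, was 10.17, 10.57 and 10.46 in knockouts, against 9.29, 9.47 and 9.30 in wild types (1.05 ± 0.10, adjusted p = 1.78e-09). Uqcr11, a small subunit, was 9.92, 9.66 and 9.50 in knockouts, against 8.67, 8.50 and 9.01 in wild types (0.97 ± 0.12). Both rose under both scalings with no overlap of the groups. The small subunit Uqcr10 changed by 0.45 on its brightest probe set, but its other probe sets gave -0.35 and -1.33, so its direction depends on the probe set. The Rieske protein Uqcrfs1 (-0.15 ± 0.09, adjusted p = 0.167) and the core protein Uqcrc1 (-0.10 ± 0.13, adjusted p = 0.537) were not called.

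Complex IV, cytochrome c oxidase, had 8 rises and 2 falls among 17 members (median 0.04), with 3 rises kept under both scalings, Cox6b1, Cox7a1 and Cox8a. The shares called higher and lower were 32.8% and 23.4% of all genes, and 62.9% and 17.1% of those averaging 6 or more. Cox7a1 was 5.27, 5.63 and 5.04 in knockout testis, against 3.46, 3.02 and 3.53 in wild-type testis (1.97 ± 0.20, adjusted p = 2.98e-09), a lower bound since the wild-type mean is near the floor. Cox6b1 was 10.10, 10.09 and 10.03 in knockouts, against 8.34, 8.82 and 9.06 in wild types (1.33 ± 0.12, adjusted p = 3.61e-10). Cox8a was 9.40, 9.17 and 8.95 in knockouts, against 7.54, 7.43 and 8.56 in wild types (1.33 ± 0.19, adjusted p = 1.02e-06). The highest wild-type array for both Cox6b1 and Cox8a was replicate 3, the array with epididymal transcripts, and it lay below the knockout arrays.

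The testis form Cox6b2 moved opposite to its partner Cox6b1. It was 9.89, 9.27 and 9.68 in knockouts, against 10.65, 9.99 and 10.65 in wild types (-0.82 ± 0.22, adjusted p = 0.00253). Cox7a2 was 11.20, 11.11 and 11.28 in knockouts, against 11.76, 11.80 and 11.83 in wild types (-0.60 ± 0.08, adjusted p = 1.97e-07). Both were lower on all 3 knockout arrays than on any wild-type array. The other testis forms were not called: Cox7b2 was 9.28, 9.36 and 9.67 in knockouts, against 9.79, 9.50 and 9.75 in wild types (-0.25 ± 0.16, adjusted p = 0.218), and Cox8c was 10.69, 10.37 and 11.11 in knockouts, against 11.27, 11.05 and 10.99 in wild types (-0.38 ± 0.19, adjusted p = 0.104). Their groups overlapped, and after centring on genes of higher signal both were among the 26 uncalled members that became lower (Cox7b2 -0.80, adjusted p = 9.51e-05, and Cox8c -0.93, adjusted p = 0.000179). The changes of Cox4i1 (0.47) and Cox6a1 (0.45) were called as deposited and became -0.084 and -0.11 after that centring.

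Complex V, the ATP synthase, had 13 rises and 0 falls among its 17 members by limma (median 0.52). Of the 13 rises, 6 were kept under both scalings. The shares called higher and lower were 32.8% and 23.4% of all genes, and 62.9% and 17.1% of those averaging 6 or more (median 0.69). At an unadjusted p below 0.05, 14 members were higher and 0 lower, where 59.1% of all genes passed in either direction. Of the 17097 genes, 5838 were higher and 4274 lower at that p. After that centring 6 members of complex V were lower. Atp5g2, 1 of 3 genes that encode the same mature c subunit of the rotor, was 9.61, 9.51 and 9.30 in knockouts, against 7.82, 7.37 and 8.20 in wild types, a 3.20-fold rise (1.68 ± 0.13, adjusted p = 2.3e-11). Atp5g3, also a c subunit gene, was 11.65, 11.78 and 11.56 in knockouts, against 9.77, 10.15 and 10.43 in wild types (1.54 ± 0.12, adjusted p = 6.47e-11). Atp5g1, the remaining c subunit gene, averaged 8.90 ± 0.12 in knockouts and 8.98 ± 0.28 in wild types (SD, n = 3 each) and was not called (-0.08 ± 0.13, adjusted p = 0.655). Atp5a1, the alpha subunit of the catalytic head, was 10.89, 10.81 and 10.60 in knockouts, against 9.53, 9.28 and 9.45 in wild types (1.35 ± 0.10, adjusted p = 3.31e-11). For the 3 genes that rose, all knockout arrays exceeded all wild-type arrays.

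**Figure D3:**
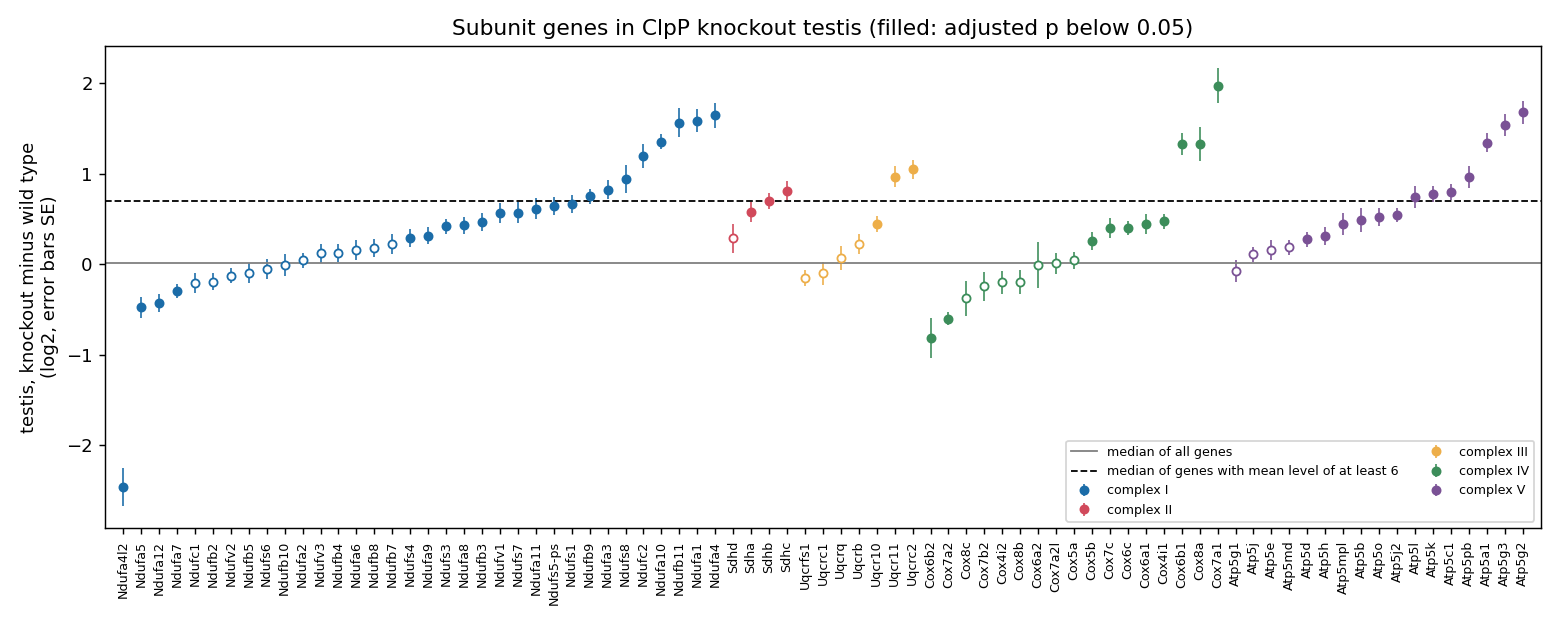
Knockout minus wild-type log2 change of all 79 members in testis with SE bars, ordered by size within each complex, filled where limma called the gene. Ndufa4l2 is lowest at -2.46 and Cox7a1 highest at 1.97, and most members lie below the dashed line, the median of genes averaging 6 or more (0.69).

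**Figure D4:**
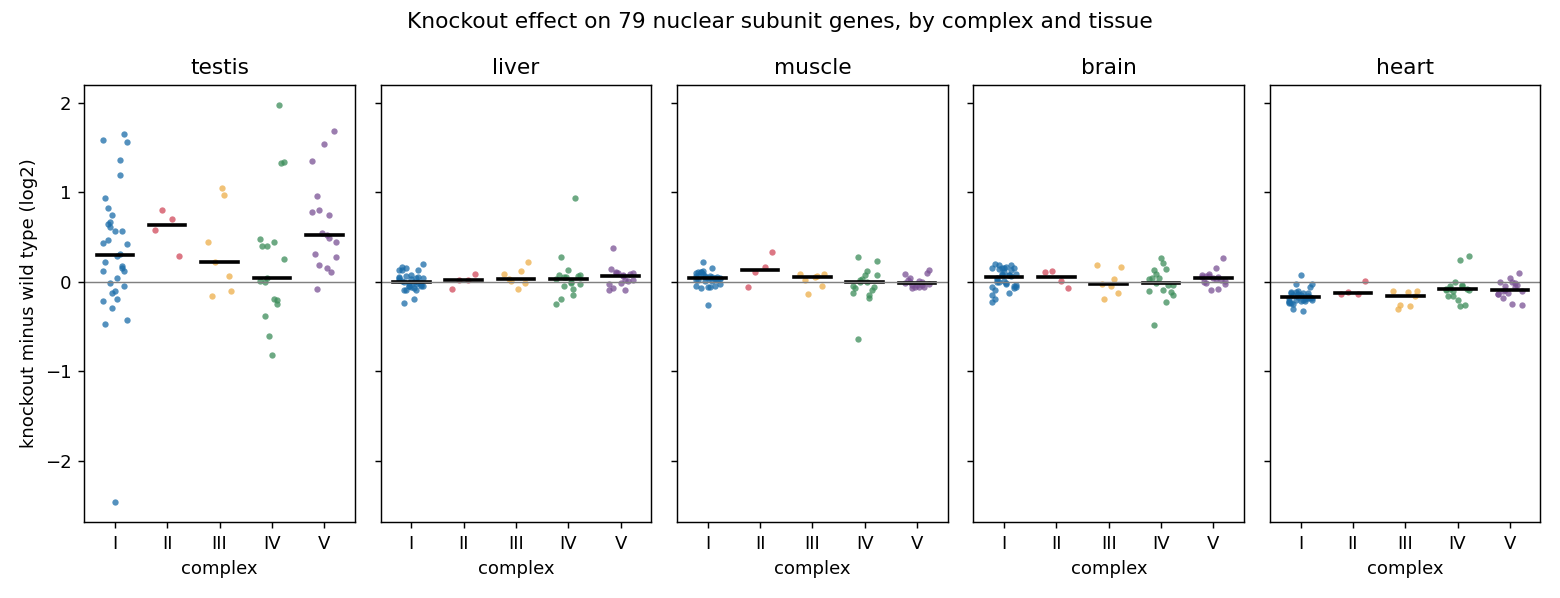
Knockout minus wild-type log2 change (vertical axis) of each member by complex in the 5 tissues, with bars at the medians. The testis points spread from -2.46 to 1.97, while those of heart lie between -0.32 and 0.29, mostly below 0.

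Genes that build the complexes moved in both directions in testis. Of 44 measured assembly factors 24 rose and 6 fell (median 0.47), against the 32.8% of all genes higher and 23.4% lower, and 62.9% and 17.1% of genes averaging 6 or more (median 0.69). After centring on these brighter genes 11 were higher and 19 lower (median -0.08). Lyrm7, which handles the Rieske protein before its insertion into complex III, fell by 4.04, whereas Ttc19 and Bcs1l, also factors of complex III, rose by 1.46 and 1.29. Nubpl and Ndufaf2, factors of complex I, fell by 1.87 and 1.01, and Ndufaf4 rose by 1.16. Cox14 and Surf1, factors of complex IV, rose by 1.54 and 1.14, and Atpaf2 of complex V fell by 1.34. Among subunits and carriers outside the symbol rule, 4 of 6 rose and 2 fell (3 and 3 after that centring), with cytochrome c (Cycs) at 2.25, Cyc1 of complex III at 1.55, Ndufab1 of complex I at 0.78 and Higd1a at -0.53. Of 12 regulators of respiratory genes 6 rose and 3 fell (4 and 5 after that centring), among them Pprc1 at 1.98, Yy1 at 1.25, Gabpa at 1.21 and Tfb1m, a mitochondrial rRNA methyltransferase, at -1.33.

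In liver 1 member was called, Cox7a1, which rose, where 0.912% of all genes were called higher and 1.5% lower. It was 4.22, 5.01 and 4.55 on knockout arrays, against 3.67, 3.89 and 3.42 on wild-type arrays, at least 1.91-fold (0.93 ± 0.20, adjusted p = 0.00675). The groups did not overlap, the wild-type mean is near the floor, and the call was lost without liver knockout replicate 2 (0.72) and when liver was fitted alone. Other measures also moved in liver: 2 of 4 brown adipocyte genes fell, with the list averaging 4.47 on knockout and 5.73 on wild-type arrays and no overlap, and 1 of 2 erythroid genes fell, with the list at 9.43 to 9.68 on knockout and 10.2 to 10.5 on wild-type arrays. The actin difference between 3′ and 5′ control probe sets was 1.79 to 2.39 on knockout and 1.67 to 1.77 on wild-type arrays. That of Gapdh overlapped, at 0.86 to 1.66 on knockout and 0.77 to 1.03 on wild-type arrays. Their part in the change of Cox7a1 was not tested. At an unadjusted p below 0.05, 4 members and 13.1% of all genes passed. The median change was 0.02. Of the 44 assembly factors 2 fell in liver, Nubpl by 0.80 and Cox18, which inserts a mitochondrially encoded subunit of complex IV, by 0.54.

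In skeletal muscle limma called 0 of 79 members, where 1.54% of all genes were called, and 1 passed an unadjusted p below 0.05, as 12.8% of all genes did. That gene, Cox8c, was 3.21, 3.21 and 3.31 in knockouts, against 4.56, 3.70 and 3.38 in wild types (-0.64 ± 0.19, adjusted p = 0.111). Its highest value was on wild-type replicate 1, the array with sperm transcripts, and without that array the change was -0.30. The median change was 0.02, while 8 of 9 slow fibre genes rose (median 3.19), with the list's level between 10.4 and 10.6 on knockout arrays and between 6.14 and 8.27 on wild-type arrays. The muscle and heart isoforms, present in both genotypes, were not called beside that shift.

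In brain limma called 0 of 79 members, where 0.415% of all genes were called, and 3 passed an unadjusted p below 0.05, as 7.91% of all genes did. The smallest adjusted p was 0.62. Atp5g2 was 9.72, 9.78 and 9.65 in knockouts, against 9.49, 9.48 and 9.38 in wild types (0.27 ± 0.13, adjusted p = 0.629), and its groups did not overlap. The median change of the members was 0.03.

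In heart limma called 0 of 79 members at the adjusted threshold, where 2.18% of all genes were called, but most members lay slightly lower in knockouts. At an unadjusted p below 0.05, 14 passed, 13 lower and 1 higher, where 13.8% of all genes passed. Among genes averaging 6 or more, 896 of 5168 passed, 637 lower and 259 higher, against 14 of 73 members. Other settings called between 0 and 4 members. In 73 of 79 members the change was below 0, against 52.6% of all genes and 64.7% of those averaging 6 or more. In 39 members all knockout arrays lay below all wild-type arrays, against 11.6% of all genes and 19.9% of those averaging 6 or more. The median change was -0.14 for the members, -0.08 for genes averaging 6 or more and -0.01 for those averaging 10 or more. By complex the median was -0.18 for complex I, with 33 of 34 below 0, -0.13 for II, -0.15 for III, with 7 of 7 below 0, -0.08 for IV and -0.09 for V.

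The genes named next for heart were chosen after their values were seen. Ndufb2, a membrane-arm subunit of complex I, was 11.07, 10.90 and 10.86 in knockout heart, against 11.32, 11.30 and 11.17 in wild-type heart (-0.32 ± 0.09, adjusted p = 0.0753). Uqcrfs1, the Rieske iron-sulphur protein, was 11.66, 11.66 and 11.53 in knockouts, against 11.93, 12.00 and 11.85 in wild types (-0.31 ± 0.09, adjusted p = 0.0816). In both the groups did not overlap, and the calls were made only under some settings. The complex IV isoforms did not share 1 direction. Cox8a was 10.40, 10.52 and 10.65 in knockouts, against 10.18, 10.22 and 10.30 in wild types (0.29 ± 0.19, adjusted p = 0.565), and Cox6a1 was 11.48, 11.70 and 11.88 in knockouts, against 11.33, 11.47 and 11.54 in wild types (0.24 ± 0.11, adjusted p = 0.332). Cox8b was 12.06, 11.84 and 11.80 in knockouts, against 12.22, 12.13 and 12.18 in wild types (-0.28 ± 0.13, adjusted p = 0.365). Knockout replicate 3 was thus the highest array for Cox8a and Cox6a1 and the lowest for Cox8b.

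The lower levels were uneven across the heart arrays. The median deviation of the members from the wild-type mean was -0.05, -0.15 and -0.18 on the 3 knockout arrays, against 0.02, -0.01 and -0.01 on the wild-type arrays. Of 79 members, 41, 65 and 67 lay below all wild-type arrays on the 3 knockout arrays (51.9%, 82.3% and 84.8%), against 44%, 45% and 41.2% of genes averaging 6 or more. The median deviation of those genes was -0.078, -0.079 and -0.05 on the 3 knockout arrays, so on replicate 1 the members' median was not below theirs. Replicates 2 and 3, the lower arrays, also had high levels of atrial and adipose transcripts. Myl7 was 3.59, 12.6 and 12.8 in knockouts, against 7.42, 3.81 and 2.95 in wild types. Adipoq, the adipocyte hormone, was 2.57, 8.03 and 9.28 in knockouts, against 3.29, 2.87 and 2.71 in wild types, and Ucp1, the uncoupling protein of brown fat, was 2.78, 6.89 and 8.07 in knockouts, against 2.80, 2.90 and 2.83 in wild types. The level of 4 adipocyte markers ranged from 4.93 to 6.93 in knockouts and from 5.10 to 5.20 in wild types, and that of 4 brown adipocyte markers from 4.27 to 6.30 in knockouts and from 4.22 to 4.30 in wild types. The level of 6 macrophage markers ranged from 6.06 to 6.72 in knockouts and from 5.69 to 5.96 in wild types. The level of 4 endothelial markers was lower on every knockout array, from 7.51 to 7.60 in knockouts and from 7.73 to 7.84 in wild types (median change -0.30, not called). The part of these transcripts in the lower levels of the members was not tested beyond leaving out arrays. Without replicates 2 and 3 the remaining knockout array had 56 of 79 members below 0 (70.9%), against 65.6% of genes averaging 6 or more. The median on that array was -0.052 for the members and -0.078 for genes averaging 6 or more. With all heart arrays kept, 0 of the 44 assembly factors were called by limma, 41 were below 0 and the median was -0.20. Of all genes 52.6% were below 0 there, and of those averaging 6 or more 64.7% (median -0.08).

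**Figure D5:**
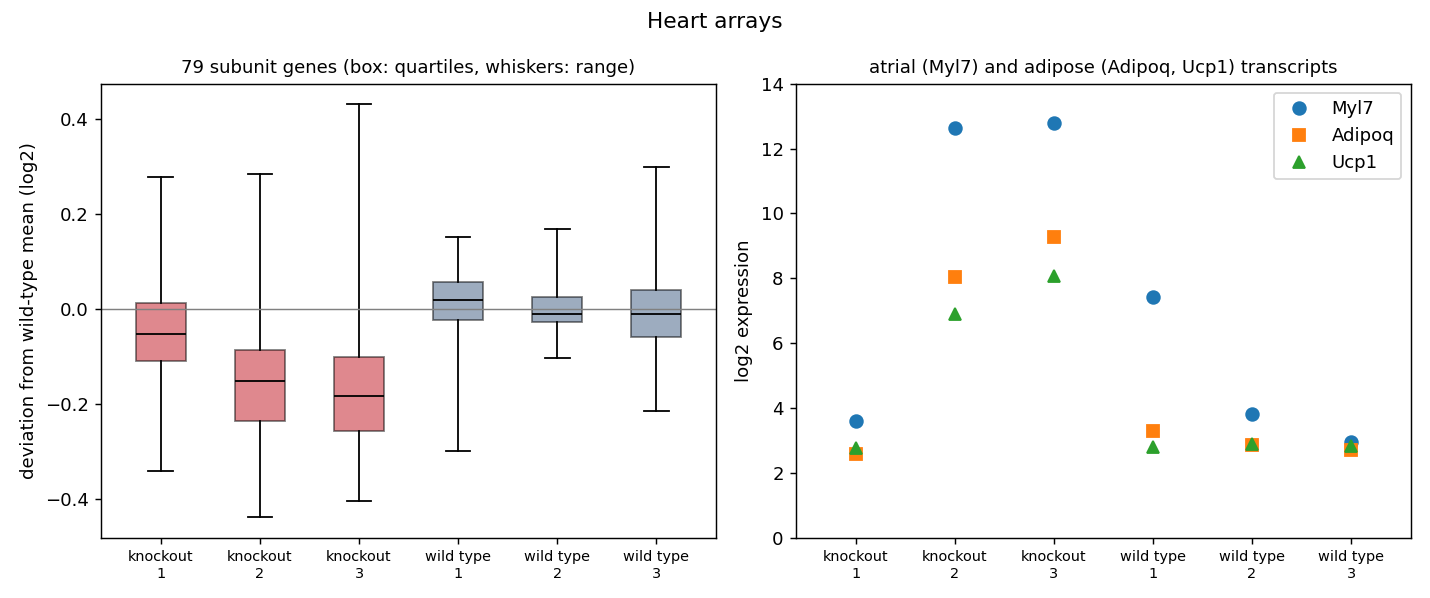
Left, deviation of the 79 members from the wild-type heart mean on each heart array (log2, boxes at quartiles, whiskers over the range), with medians of -0.05, -0.15 and -0.18 on the knockout arrays and 0.02, -0.01 and -0.01 on the wild-type arrays. Right, log2 levels of Myl7, Adipoq and Ucp1 on the same arrays, all highest on knockout replicates 2 and 3.

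The knockout effect was then compared between tissues. A moderated F test over the 5 tissues called 47 of the 79 members, where 52.3% of all genes were called. The members called were 23 in complex I, 3 in II, 3 in III, 8 in IV and 10 in V. Among genes averaging 6 or more the test called 3802 of 5168, and 45 of the 73 members in that range, a smaller share. The effect in testis minus the mean of the other 4 tissues was called for 51 members, 45 higher and 6 lower, where 32.2% of all genes were called higher and 23.3% lower. Of the 5168 genes averaging 6 or more, 3214 were higher and 806 lower, against 45 and 4 of the 73 members. The genes with the smallest p of the F test were Ndufa10, Atp5a1, Ndufa1, Atp5g3, Atp5g2, Cox6b1, Ndufa4l2 and Ndufa4, all named above for testis. For the effect in muscle minus that in heart limma called 0 members, where 0.854% of all genes were called, and 8 passed an unadjusted p below 0.05, as 11.3% of all genes did. Of the 79 differences 70 were positive (median 0.17), against 51% of all genes and 53.7% of those averaging 6 or more. For the mean over the 4 tissues other than testis 0 members were called, where 4.02% of all genes were called, and 4 passed an unadjusted p below 0.05, as 18.2% of all genes did. Array weights called 2, Cox7a2l (-0.18) and Uqcrb (-0.17).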

How the data were processed

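The authors deposited log2 expression values per probe set, made with RMA in R 2.14.0 per the submitters' processing notes. RNA was extracted with RNeasy columns and labelled with a 3′IVT kit, per the labels' protocols. Whether all arrays were normalized together is not given in the sources used here. Of 45141 deposited probe sets, 28898 carried 1 gene symbol, 551 several and 15692 none. Here 10 group means of 30 arrays were fitted across 17097 genes with limma 3.58.1 in R 4.3.3 (20 residual degrees of freedom, default prior), with Benjamini-Hochberg adjustment over all genes and a threshold of 0.05. Errors after ± are SE from this fit unless given as SD. The 3 arrays per group limit the precision. On simulated data for heart, 178 of 200 genes changed by 1 on the log2 scale were called (89%), and 12 unchanged genes were called. The members' changes in heart lay between -0.32 and 0.29, so this share does not apply to changes of their size.

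Members and lists were chosen with earlier results of these data known. The NRF1 and YY1 letters were shortened and the MEF2 motif narrowed after first counts had been seen. Named genes were the isoform families, up to 8 largest called rises and falls per tissue, all called genes of a complex with 5 or fewer, the 8 smallest p of the F test, up to 5 largest called rises and falls in the mean over 4 tissues, and up to 4 called genes per other list. Others are said to be chosen later. Replicate numbers were not used as pairs in the main fit. Correlations of same-numbered deviations ran from -0.28 to 0.12 in testis, -0.13 to 0.18 in liver and -0.089 to 0.12 in brain. They ran from -0.014 to 0.053 in heart and from 0.079 to 0.40 in muscle, so the numbers may pair muscle arrays. Alternatives were other priors, weights, blocks, normalizations, filters, probe set rules, each tissue alone and each array left out.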

Additional observations from a re-analysis of the deposited data

Results flagged for a closer look

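By the F test of limma the knockout effect differed between tissues for 47 members, where 52.3% of all genes were called. In testis against the mean of the other 4 tissues it differed for 51, where 32.2% of all genes were higher and 23.3% lower. Among genes averaging 6 or more the F test called 3802 of 5168, against 45 of 73 members. The moderated F statistic was 52.7 for Ndufa10, 36.0 for Atp5a1, 33.7 for Ndufa1, 30.5 for Atp5g3, 29.4 for Atp5g2, 27.7 for Cox6b1, 27.2 for Ndufa4l2 and 26.6 for Ndufa4. All 8 changed in testis on the probe set used, and none of them was called in another tissue. A second, dimmer probe set of Ndufa10 gave -0.14 in testis. Whether shifts in cell makeup enter these differences was not tested.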

How the results depend on the processing

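The testis count of 51 members lay between 47 and 57 under every alternative run, leave-one-out included (49 to 52), but centring on genes averaging 6 or more turned its balance to 18 higher and 37 lower. The median change in testis was then -0.16 and in liver 0.077, and the testis median was 0.31 with the mean of all probe sets. The liver count of 1 became 0 when liver was fitted alone. In heart the count of 0 became 2 with a trended robust prior (Ndufb2, Uqcrfs1), 4 with array weights (Ndufb2, Ndufb3, Uqcrb, Uqcrfs1) and 1 after quantile normalization (Uqcrfs1). Array weights gave 2 in the mean over 4 tissues. Without the 2 heart knockout arrays with high Myl7 the heart median was -0.052. Leaving out 1 array at a time gave 0 to 1 calls in liver (0 without liver knockout replicate 2), 0 to 1 in muscle (Cox8c, -0.89 without muscle wild-type replicate 3, and -0.30, not called, without replicate 1) and 0 to 1 in heart (Ndufb2, -0.32 without testis wild-type replicate 3 and -0.38 without heart knockout replicate 1). In testis Ndufa12 became 0.052 with probe sets specific to 1 gene, Uqcr10 -0.41 with the mean of its probe sets, -1.33 with specific ones and -0.11 after the centring, Cox4i1 -0.084 and Cox6a1 -0.11 after it. With the replicate number as a block, testis kept 51 calls, liver 1 and heart 0, and the F test gave 44. Of 474 values of named changes that were called, 462 kept direction and side of the threshold, 6 were no longer called and 6 reversed. Of 1463 values of named changes that were not called, 10 became called and 97 had the opposite sign, over 36 of 78 changes, so these have no settled direction. Fitting each tissue alone gives no contrast between tissues. With signals near the floor, changes of Cox7a1, Ndufa4l2 and Cox8c outside their main tissues are limited by background.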
